A study of Mus musculus with 15 samples.

Results

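The kallikrein-related peptidases described here are 10 mouse genes, Klk1, Klk5, Klk6, Klk7, Klk8, Klk9, Klk10, Klk11, Klk13 and Klk14, chosen by symbol. All 10 were found among the 21886 genes of the RPKM table (reads scaled to gene length and to library size), and 6 of them, Klk6, Klk8, Klk9, Klk10, Klk11 and Klk13, among the 14301 genes of a separate count table. RNA came from prostate epithelial organoids of C57BL/6 mice, which are cultured clusters of prostate epithelial cells. In the RPKM table the organoids came from 3-month-old mice, and all 4 groups, the control included, shared 1 further engineered allele: the control with neither deletion, the Setd2 null (Setd2PC-/-), the Ezh2 null (Ezh2PC-/-) and the double null (Setd2PC-/-;Ezh2PC-/-). In the count table they came from 2-month-old mice, and both groups shared a background genotype that differed from that of the RPKM table: one group with wild-type Ezh2 and one with Ezh2K735R. Each group had 2 libraries. Each library of the RPKM table was a pool of RNA from 3 biological replicates, and the pool size of the other 4 libraries is not given in the sources used here. What drives the deletions marked PC is also not given there. As the libraries are pools, each p-value below rests on how far pools of RNA differ and does not cover the spread among single mice.

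Kallikrein-related peptidases are secreted serine proteases made as inactive precursors, which lose a short propeptide when they are activated, often by another kallikrein or by a membrane-bound serine protease. In stratified epithelia they form a cascade that cleaves desmosomal proteins and lets cells shed, and the inhibitor encoded by Spink5 holds that cascade in check. In the prostate, members of the family are secreted into the seminal fluid. Ezh2 is the catalytic subunit of the Polycomb complex that methylates lysine 27 of histone H3, and Setd2 trimethylates lysine 36 of the same histone.

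Depth ran from 29686148 to 54231090 reads on listed genes in the RPKM libraries, as recovered from the RPKM steps, and from 28831228 to 37482322 in the count libraries. The 4 libraries without Ezh2 were the deepest, with library totals between 47554228 and 55592506 reads, against 30308844 to 35686706 in the other 4. Setd2 read 16.1 to 17.0 RPKM in control, 8.75 to 10.3 in the Setd2 null and 7.54 to 8.99 in the double null. Ezh2 read 19.4 to 20.8 RPKM in control, 11.6 to 13.8 in the Ezh2 null and 14.2 to 16.6 in the double null. The tables give 1 value per gene, so the deleted exons cannot be read separately. The epithelial genes Epcam, Krt8 and Krt5 averaged 1050, 1000 and 547 RPKM in control. The luminal prostate gene Pbsn was listed at 0 in control and averaged 2.33 RPKM in the Ezh2 null. Epcam fell to 299 RPKM there (limma adjusted p 2.94e-06). Of 10 prostate epithelium markers tested, limma called 3 higher and 3 lower there, where it called 36.1% of all genes higher and 20.5% lower. In bulk RNA, fewer cells of a type and less RNA per cell cannot be told apart.

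The 10 genes lie on the plus strand of chromosome 7, within 548743 bases from 43680880 to 44229622 (mm10, the build named in the submitters' processing notes). In order they are Klk14, Klk13, Klk11, Klk10, Klk9, Klk8, Klk7, Klk6 and Klk5, with Klk1 farther on beyond other family members. Klk12, which is not among the 10, sits between Klk13 and Klk11 and overlaps Klk11 by 88 bases in the deposited positions, so reads in the shared stretch could count for either gene. Klk8 (Entrez 259277) spans 43797577 to 43803826, and Klk10 (Entrez 69540) spans 43781054 to 43785410. Klk9 (Entrez 101533), from 43791588 to 43796758, lies between those 2 genes. Klk11 (Entrez 56538) spans 43774617 to 43779263. RefSeq (GRCm38.p6) had an entry upstream of the start for all 10 genes, with 12 windows in all. The 250 bases before Klk8 and before Klk10 are shown because Klk8 and its near neighbour Klk10 differed in how they read across the 4 genotypes, and because the windows differ in base composition. CpG dinucleotides are in capitals. The Klk8 window covers chr7:43797327-43797576 and the Klk10 window chr7:43780804-43781053, both on the plus strand.
Klk8: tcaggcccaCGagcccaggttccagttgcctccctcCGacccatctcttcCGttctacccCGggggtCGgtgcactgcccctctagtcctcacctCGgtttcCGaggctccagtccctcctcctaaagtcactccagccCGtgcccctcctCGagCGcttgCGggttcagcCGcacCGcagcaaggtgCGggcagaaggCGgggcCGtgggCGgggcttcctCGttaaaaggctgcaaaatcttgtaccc
Klk10: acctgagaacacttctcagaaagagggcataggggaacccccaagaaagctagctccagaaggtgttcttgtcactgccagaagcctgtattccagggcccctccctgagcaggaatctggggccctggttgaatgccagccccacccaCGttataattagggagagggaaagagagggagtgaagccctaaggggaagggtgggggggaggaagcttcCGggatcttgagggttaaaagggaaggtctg
The Klk8 window held 18 CpG dinucleotides and 65.2% G and C, the highest of the 12 windows for both. The Klk10 window held 2 CpG dinucleotides and 56.0% G and C. The window of Klk9 held 4 CpG dinucleotides, and those of Klk11 held 3 and 2. Any link between base composition and the levels below was not tested. Over 32851 promoter windows of the same length the median was 6 CpG dinucleotides, and 80.3% of windows held as many as Klk8 or fewer. Motifs were searched on both strands. The TATA box, TATAAA, was in none of the 12 windows and in 12.4% of all windows. The AP-1 site, written TGANTCA, was in none of the 12 and in 6.75% of all, and the palindromic consensus of the androgen response element was in none of the 12 and in 0.0304% of all. This says only that these letters are not in these windows.

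Klk8, which encodes the trypsin-like protease neuropsin, was the most abundant of the 10 genes in control. It read 5.45 and 4.16 RPKM in the 2 control libraries. Klk10, first described as a gene of normal epithelial cells, read 0.707 and 0.752 RPKM. Klk11 read 0.825 and 0.325 RPKM, and Klk9 read 0.347 and 0.569 RPKM. The range of Klk11 overlapped those of Klk10 and Klk9, so its place in the order was not resolved beyond the spread between libraries. Klk10 lay above Klk9 in both libraries, Klk8 lay above all 3, and Klk13, at 0.129 and 0.114 RPKM, lay below all 3. Klk6 had 1 read in the 2 control libraries together. Klk1, Klk5, Klk7 and Klk14 had none, and 3 reads over the group is the limit that a count of 0 allows, for counting error only. Averaged over all 8 libraries, Klk8 stood at 4.55 RPKM, Klk10 at 0.943 and Klk11 at 0.440, and Klk8 alone reached the mean of 1 RPKM that limma's test on log2(RPKM + 1) required. On that scale the change of low genes is understated. For the other 9 genes the test was edgeR's quasi-likelihood test on reads recovered from the RPKM values, which kept Klk6, Klk8, Klk9, Klk10, Klk11 and Klk13. Klk6 passed that filter only through the double null, where it was highest.

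**Figure D1:**
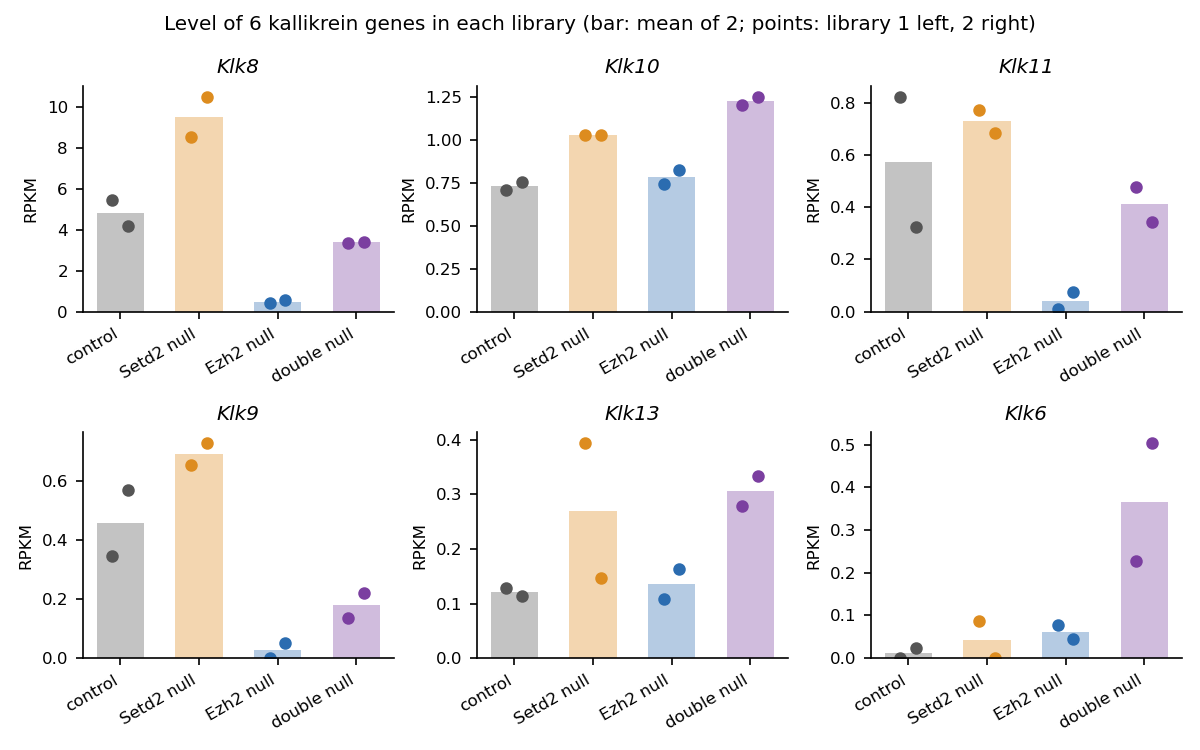
RPKM (vertical axis, its own scale in each panel) of 6 kallikrein genes in the 4 genotypes; bars are means of 2 libraries and points are the libraries. Klk8, Klk11 and Klk9 are lowest in the Ezh2 null, where Klk8 reads 0.393 and 0.555, while Klk10 there reads 0.744 and 0.823, beside 0.707 and 0.752 in control.

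Klk8 was highest in the Setd2 null and lowest in the Ezh2 null. In the Setd2 null it read 8.52 and 10.5 RPKM, a mean of 9.53 ± 1.43 (SD, n = 2) against 4.81 ± 0.910 in control. In the Ezh2 null it read 0.393 and 0.555 RPKM, a mean of 0.474 ± 0.114. In the double null it read 3.35 and 3.42 RPKM, a mean of 3.39 ± 0.0434. No pair of groups overlapped, and the order from high to low was Setd2 null, control, double null and Ezh2 null. The share of all genes whose groups did not overlap is not given, so overlap here and below is stated only as a description.

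The Ezh2 deletion was accompanied by lower Klk8 with and without Setd2. Against control, Klk8 was 10.1-fold lower in the Ezh2 null in mean RPKM, a log2 fold change of -1.97 (SE 0.153) on the log2(RPKM + 1) scale, with a limma adjusted p of 5.64e-06. On recovered reads the log2 fold change was -3.51 (SE 0.298), with an edgeR adjusted p of 7.56e-06. In this comparison limma called 56.6% of all 11338 genes tested, 36.1% as higher and 20.5% as lower. Klk8 was therefore 1 of many genes that fell. Against the Setd2 null, Klk8 was 2.82-fold lower in the double null, with a limma log2 fold change of -1.26 (SE 0.153) and an adjusted p of 0.000115. Here limma called 55% of genes. Both calls stood in each alternative fit of Klk8 that was run, including those without any 1 library.

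Klk8 was higher in the double null than in the Ezh2 null, by 7.14-fold in mean RPKM. The limma log2 fold change was 1.57 (SE 0.153) with an adjusted p of 0.000285, and the edgeR value was 2.85 (SE 0.291) with an adjusted p of 0.00055. Limma called 6.49% of genes in this comparison, and 3.79% as higher. Deviations of same-numbered libraries from their group means correlated at 0.933 between the Ezh2 null and the double null. Both fits took the libraries as unpaired, so these p-values ignore that shared deviation. The Setd2 deletion on its own gave a smaller difference: Klk8 was 1.98-fold higher in the Setd2 null than in control, with a limma log2 fold change of 0.86 (SE 0.153) and an adjusted p of 0.0356, where 1.07% of genes were called. That call was lost without any 1 of the 4 libraries (adjusted p from 0.0796 to 0.315) and on recovered reads (edgeR log2 fold change 1.01, adjusted p 0.132). The double null lay below control by a limma log2 fold change of -0.40 (SE 0.153), which missed the threshold at an adjusted p of 0.0521; it passed without control library 2 (adjusted p 0.039). With the replicate number as a block, edgeR's adjusted p for this difference went from 0.0607 to 0.0472. Limma called 54.2% of genes there.

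The difference between the effects of the Setd2 deletion without and with Ezh2, the interaction of both deletions, was 0.71 for Klk8 (SE 0.217) in limma, with an adjusted p of 0.17. On recovered reads it was 1.84 (SE 0.384), with an edgeR adjusted p of 0.0474. That value passed the threshold only with all 8 libraries: without any 1 of them the adjusted p ran from 0.0531 to 0.192. Limma called 2.59% of genes for this term and edgeR 1.51%. With a pseudocount of 0.1 in place of 1, limma also passed it (1.64, adjusted p 0.0278), so the call depended on how low values were scaled and on the test. Comparisons that share a group of libraries, such as those with control, are not independent of each other.

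Klk9 and Klk11, the neighbours of Klk8 and Klk10, were also lower without Ezh2. In the Ezh2 null, Klk9 was listed at 0 in library 1 and at 0.0520 RPKM in library 2 (0 and 4 reads), against 0.347 and 0.569 RPKM in control (17 and 28 reads). Klk11, whose product is also called hippostasin, was at 0.0105 and 0.0734 RPKM there (1 and 6 reads), against 0.825 and 0.325 in control (43 and 17 reads). For both genes the Ezh2 null values did not overlap those of control, which is stated only as a description. Klk9 fell by 4.29 on the log2 scale (SE 0.965) with an edgeR adjusted p of 0.00421, and its mean RPKM was 17.6-fold lower. Klk11 fell by 3.94 (SE 0.815) with an edgeR adjusted p of 0.00259, and its mean was 13.7-fold lower. Both calls held without any 1 library. With Klk8, 3 of the 6 kallikreins kept by edgeR's filter fell in the Ezh2 null and none rose, where edgeR called 23.9% of all 14644 genes as lower.

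In the double null Klk9 read 0.137 and 0.219 RPKM and Klk11 read 0.480 and 0.344 RPKM. Both genes lay above their Ezh2 null values in both libraries and below their Setd2 null values, which were 0.655 and 0.727 RPKM for Klk9 and 0.775 and 0.685 RPKM for Klk11. Klk11 was higher than in the Ezh2 null, with a log2 fold change of 3.30 (SE 0.805) and an edgeR adjusted p of 0.0434. That call was lost without Ezh2 null library 1 (adjusted p 0.247), double null library 1 (0.141) or double null library 2 (0.0853). Klk9 had a log2 fold change of 2.78 (SE 0.973) and an adjusted p of 0.167. So 2 of 6 kept kallikreins, Klk8 and Klk11, were called higher, where edgeR called 3.26% of genes as higher. Against the Setd2 null, Klk8 and Klk9 were called lower by edgeR, where 23% of genes were. The log2 fold change of Klk9 was -2.13 (SE 0.781) with an adjusted p of 0.0438, which did not hold without any 1 of the 4 libraries (0.0858 to 0.183). Klk11 had a log2 fold change of -1.01 (SE 0.663) and an adjusted p of 0.231. In the Setd2 null against control, edgeR called none of the 6, and 1 of them, Klk8, had an unadjusted p below 0.05; it called 0.908% of genes.

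Klk12, chosen for mention after its values were seen, had the same order of genotypes as Klk8 and Klk9. It had 45 and 56 reads in control, 130 and 129 in the Setd2 null, 1 and 1 in the Ezh2 null and 23 and 14 in the double null. The control level was 85.8 times that of the Ezh2 null by summed reads (95% exact interval 23.1 to 718, for counting error only), with an edgeR adjusted p of 1.37e-05. The stretch it shares with Klk11 means that the counts of both genes carry some uncertainty.

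**Figure D2:**
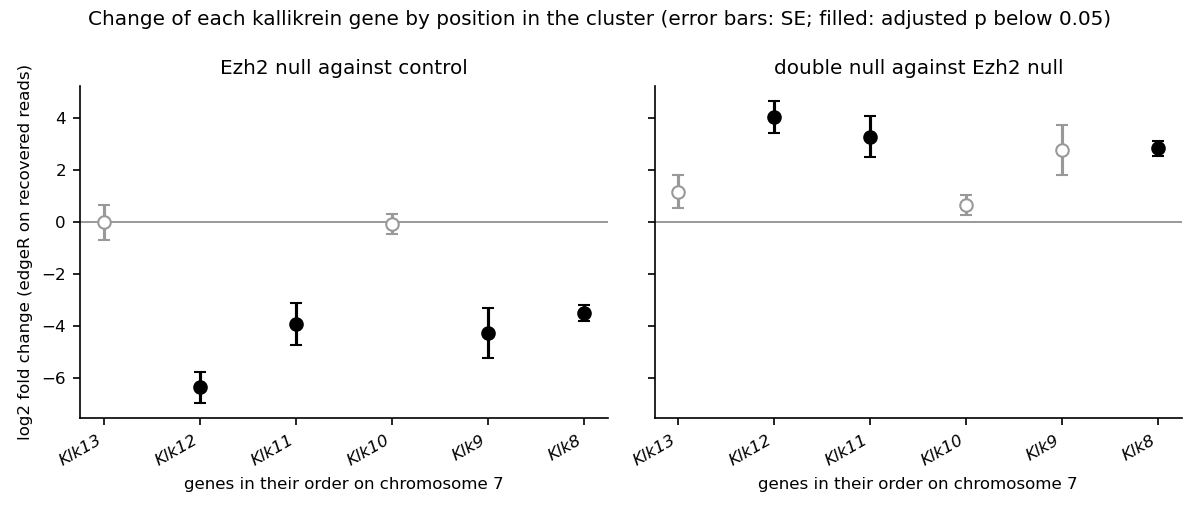
Log2 fold change (vertical axis, edgeR on recovered reads, error bars SE) of 6 kallikrein genes in chromosomal order, for the Ezh2 null against control (left) and the double null against the Ezh2 null (right); filled points have an adjusted p below 0.05. Klk12, Klk11, Klk9 and Klk8 lie at or below -3.51 on the left, with Klk10 between them at -0.07 and Klk13 at -0.01; the value of Klk12 rests on 1 read in each Ezh2 null library.

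Klk10 did not fall with its neighbours. It read 1.03 and 1.03 RPKM in the Setd2 null, 0.744 and 0.823 in the Ezh2 null and 1.20 and 1.25 in the double null. The Ezh2 null values overlapped those of control, and the double null values lay above those of the other 3 groups. Against control its log2 fold change was -0.07 (SE 0.384) in the Ezh2 null, with an edgeR adjusted p of 0.888, and 0.59 (SE 0.382) in the double null, with an adjusted p of 0.223. Neither difference passed the threshold in edgeR. The limma fit without a filter on low values called the second (adjusted p 0.0087).

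Klk13, a member known from stratified epithelia such as the oesophagus, was also not called in any genotype by edgeR. It read 0.394 and 0.146 RPKM in the Setd2 null, 0.109 and 0.164 in the Ezh2 null and 0.279 and 0.333 in the double null. The Setd2 null libraries spanned those of the double null. The log2 fold change in the double null against control was 1.17 (SE 0.674), with an edgeR adjusted p of 0.174.

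Klk6 and Klk7 were at their highest in the double null. Klk6, known as neurosin and studied mostly in the central nervous system, had 16 and 36 reads there (0.228 and 0.503 RPKM), 6 and 3 in the Ezh2 null, 4 and 0 in the Setd2 null and 0 and 1 in control. The double null libraries lay above the other 6. By summed reads the double null was 31.4 times control (95% exact interval 5.40 to 1270, for counting error only), and the edgeR adjusted p was 0.0235, where edgeR called 26.2% of genes as higher. As Klk6 entered this test only through the double null, the call is given as a description. It was lost without control library 1 (0.137), control library 2 (0.0625) or double null library 2 (0.123). Mean Klk6 was 6.03-fold higher than in the Ezh2 null, where the adjusted p was 0.259, and 8.51-fold higher than in the Setd2 null, where it was 0.063.

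Klk7, a chymotrypsin-like protease of skin shedding, had 12 and 5 reads in the 2 double null libraries and 1 read in the other 6 together, in Setd2 null library 2. With 3 reads over a group as the floor, the double null was at least 3.43-fold higher than control and at least 5.82-fold higher than the Ezh2 null. Klk7 did not pass edgeR's filter and has no test there. Klk5, which activates Klk7 and other members in skin, had no read in any of the 8 libraries. Klk14, another skin protease, had 2 reads in Ezh2 null library 2 and 1 in double null library 2. Klk1, the tissue kallikrein that releases kinins from kininogen, had 10 reads in Ezh2 null library 2, none in Ezh2 null library 1, 3 in the double null and 1 in the Setd2 null. Klk1 has close copies in the Klk1b genes, between which reads can be split, so its few reads are uncertain.

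The makeup of the summed kallikrein signal differed by genotype. Summed over the 10 genes, RPKM was 5.95 to 7.46 in control, 11.5 to 13.2 in the Setd2 null, 1.33 to 1.95 in the Ezh2 null and 5.85 to 6.15 in the double null. Klk8 made up 70.0% to 80.0% of the sum in the 4 libraries with Ezh2. It made up 28.4% to 29.5% in the Ezh2 null, where Klk10 held the largest share at 42.2% to 55.8%. In the double null the share of Klk8 was 55.6% to 57.3% and that of Klk10 20.4% to 20.6%. These sums rest on 106 to 647 reads per library.

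**Figure D3:**
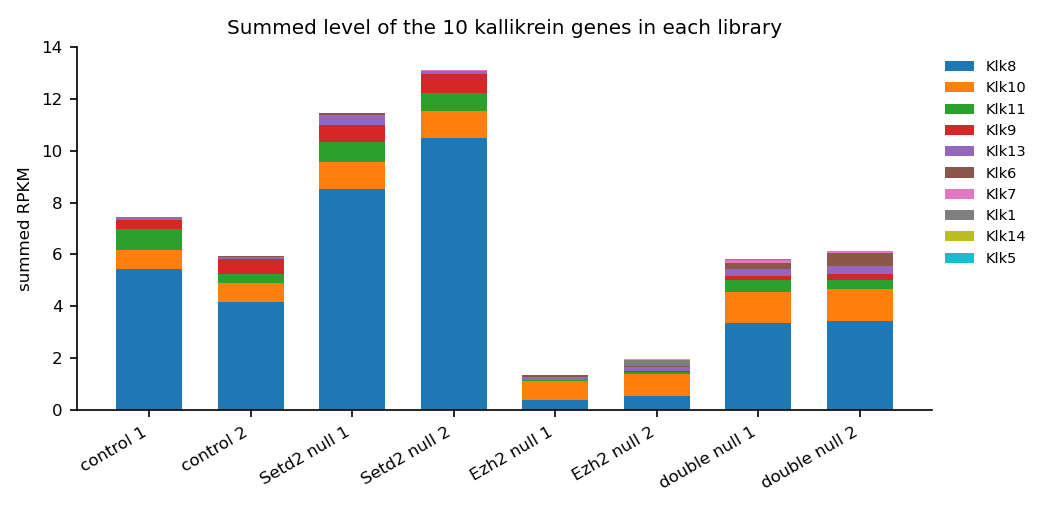
Summed RPKM (vertical axis) of the 10 kallikrein genes in each of the 8 libraries, stacked by gene. The Ezh2 null libraries reach 1.33 and 1.95, with Klk10 as the largest share, and the Setd2 null libraries 11.5 and 13.2, with Klk8 as the largest.

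Across the 8 libraries, log2(RPKM + 1) of Klk8 moved with that of Klk9 (Pearson's r 0.91, Spearman's rho 0.98) and of Klk11 (r 0.93, rho 0.81). Its relation to Klk10 was weaker (r 0.34, rho 0.12). Klk10 and Klk13 had r 0.79 and rho 0.74. These values describe 4 genotypes of 2 libraries that also differ in depth, and carry no test. The genes most like Klk8, by the root mean square difference of centred log2(RPKM + 1) over the 8 libraries, were Oasl1 (0.198), Mab21l3 (0.219) and Upp1 (0.248). Those most like Klk10 were Elf3 (0.0488), Slc35f6 (0.0503) and Arfgap3 (0.0726), and those most like Klk11 were Mthfd1l (0.0945), Lmo7 (0.113) and Golim4 (0.115). Only genes outside the family with a mean of at least 1 RPKM were compared. This scale flattens low genes, so likeness on it is not a like fold change. Mean Klk11 was 0.575 RPKM in control and 0.0419 in the Ezh2 null, while Mthfd1l was 13.6 and 8.44.

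Around the cluster, few genes were expressed. Of the 10 annotated genes before it, 2 reached a mean of 1 RPKM: Ctu1 rose in the Ezh2 null (limma log2 fold change 1.14, adjusted p 0.0005) and Zfp719 did not pass (-0.30, adjusted p 0.0946). Of the 10 genes after it 1 did, 2410002F23Rik, which rose (0.59, adjusted p 0.00181). Of 16 other kallikrein genes listed, none reached a mean of 1 RPKM, and their summed level was 0.585 to 1.55 RPKM in every library. That sum joins differences in both directions. Klk12 averaged 0.447 RPKM in control and 0.00525 in the Ezh2 null. Klk1b24 averaged 0 and 0.297 RPKM in the same order, and Klk1b22 averaged 0.192 and 0.381. Limma tested none of these genes.

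Among the serine proteases known to act upstream of or beside kallikreins, 12 of 13 were tested by limma. In the Ezh2 null 5 rose and 4 fell, with a median log2 fold change of 0.23 beside 0.18 for all genes, of which 36.1% rose and 20.5% fell. Tmprss4 rose from 3.03 to 39.3 RPKM (adjusted p 4.22e-08), Plau, which encodes urokinase, fell from 224 to 14.6 RPKM (adjusted p 3.88e-08), and Prss22 fell from 110 to 15.1 RPKM (adjusted p 5.21e-06). Tmprss11d was at 0.193 RPKM in control and 0.392 in the Ezh2 null and rose to 3.63 in the double null (adjusted p 0.0001 against the Ezh2 null). St14, which encodes matriptase, averaged 99.5 RPKM in control and 105 in the Ezh2 null (adjusted p 0.781).

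Of 11 protease inhibitors, 5 were tested, and 2 rose and 1 fell in the Ezh2 null (median 0.35), a share called near the 56.6% of all genes. Spink5, the inhibitor of Klk5, Klk7 and Klk14, averaged 19.1 RPKM in control, 20.2 in the Setd2 null, 89.1 in the Ezh2 null and 122 in the double null. It rose in the Ezh2 null with a limma adjusted p of 3.76e-06. Serpina3n rose from 0.0471 to 4.21 RPKM (adjusted p 6.16e-07), and Slpi fell from 10.1 to 5.67 RPKM (adjusted p 0.00796). Of 18 substrates and receptors, 6 were tested, and 4 rose and 2 fell in the Ezh2 null (median 0.91 beside 0.18 for all genes, of which 56.6% were called). F2rl1, which encodes the protease-activated receptor that trypsin-like kallikreins can cleave, rose from 16.7 to 33.1 RPKM (adjusted p 0.000155). Igfbp3 fell from 59.1 to 32.4 RPKM (adjusted p 0.00301). The kinin-degrading enzymes Ace and Mme rose from 4.74 to 58.2 and from 2.23 to 10.5 RPKM (adjusted p 3.36e-07 and 0.000434).

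Markers of cornified epithelium, a tissue in which some of these kallikreins are known, had another order of genotypes than Klk8. Of 15 such genes 12 were tested: 8 rose and none fell in the Ezh2 null (median log2 fold change 1.03, where 36.1% of all genes rose), and 11 rose and none fell in the double null against the Ezh2 null (median 1.43, beside -0.02 for all genes, of which 3.79% rose). Krt10 averaged 0.941 RPKM in control, 31.0 in the Ezh2 null and 98.0 in the double null. Krt13 averaged 9.77, 139 and 432 RPKM in the same order. Summed over the 15 genes, RPKM was 639 to 696 in control, 556 to 796 in the Setd2 null, 931 to 1080 in the Ezh2 null and 2190 to 2430 in the double null. Klk6 and Klk7, which rest on few reads, were highest in the double null, which also had the most cornified marker RNA. Klk8, Klk9 and Klk11 were lowest in the Ezh2 null, where that RNA was above control. Any link between cornified marker RNA and the kallikrein levels was not tested.

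The summed markers of other cell types differed with the Ezh2 genotype too, with single genes in both directions. The summed level of 8 stroma markers was 8.08 to 13.4 RPKM in the 4 libraries with Ezh2 and 26.2 to 30.8 in the 4 without. Of the 4 tested in the Ezh2 null, 3 rose, among them Dcn from 1.18 to 15.7 RPKM, and Postn fell from 7.50 to 0.217 RPKM (limma adjusted p 3.75e-06). Lum was at 0 in control. Endothelial markers summed to 0.532 to 0.658 RPKM with Ezh2 and 1.92 to 3.15 without, and Esam carried that difference (0.477 RPKM in control and 2.48 in the Ezh2 null), while Pecam1 averaged 0.0634 and 0.0412. The 7 immune markers summed to 21.8 to 39.6 RPKM with Ezh2 and 12.3 to 14.7 without. Of these, Cd68 averaged 23.2 RPKM in control and 4.33 in the Ezh2 null, Lyz2 was at 0 in control and averaged 7.94 in the Ezh2 null, and the defining marker Ptprc was at 0 in control. Markers of seminal vesicle and urothelium summed to 27.7 to 36.0 RPKM with Ezh2 and 81.6 to 110 without. Of these 5 rose and 1 fell in the Ezh2 null: Pate4 averaged 0.0162 RPKM in control and 34.4 in the Ezh2 null, and Upk3a fell from 5.83 to 1.35 RPKM (limma adjusted p 0.000389). The part of these markers, and of the greater depth of the libraries without Ezh2, in the kallikrein differences was not tested.

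In the organoids of the count table, Klk8 was again the most abundant of the kallikreins listed. Its wild-type libraries held 75 and 176 counts, or 2.50 and 4.74 CPM (counts scaled to a common library size). Its Ezh2K735R libraries held 271 and 276 counts, or 9.07 and 9.56 CPM. The groups did not overlap. The means were 3.62 ± 1.58 and 9.32 ± 0.343 CPM (SD, n = 2 each), a log2 fold change of 1.36 (SE 0.365) with an edgeR adjusted p of 0.423. In this table edgeR called 0.00757% of 13203 genes, which is 1 gene, and none of the 6 kallikreins; 1 of the 6, Klk8, had an unadjusted p below 0.05, as it did in DESeq2, which called 285 of 14280 genes and also none of the kallikreins (adjusted p 0.0506 for Klk8). Without wild-type library 2, edgeR called Klk8 (log2 fold change 1.91, adjusted p 0.00414), and 1595 genes in all.

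The other 5 kallikreins in this table were low. Klk10 read 0.700 and 0.862 CPM with wild-type Ezh2 and 1.81 and 1.35 with Ezh2K735R. Klk11 read 0.233 and 0.242 CPM against 0.837 and 0.554. For both genes the Ezh2K735R libraries lay above the wild-type ones, with log2 fold changes of 1.01 (SE 0.465) and 1.53 (SE 0.634) and edgeR adjusted p of 0.589 and 0.562. Klk9 read 0.367 and 0.754 CPM against 0.837 and 0.589, Klk13 read 0.0667 and 0.727 against 0.636 and 0.450, and Klk6 read 0.700 and 0.188 against 0.368 and 1.59. The groups of these 3 genes overlapped. The share of all genes whose groups did not overlap is not given here, so overlap is stated only as a description. Of 13 cornified markers in this table none was called, with a summed level of 1430 to 1630 CPM with wild-type Ezh2 and 2430 to 2930 with Ezh2K735R. The part of that difference in the Klk8 values was not tested.

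**Figure D4:**
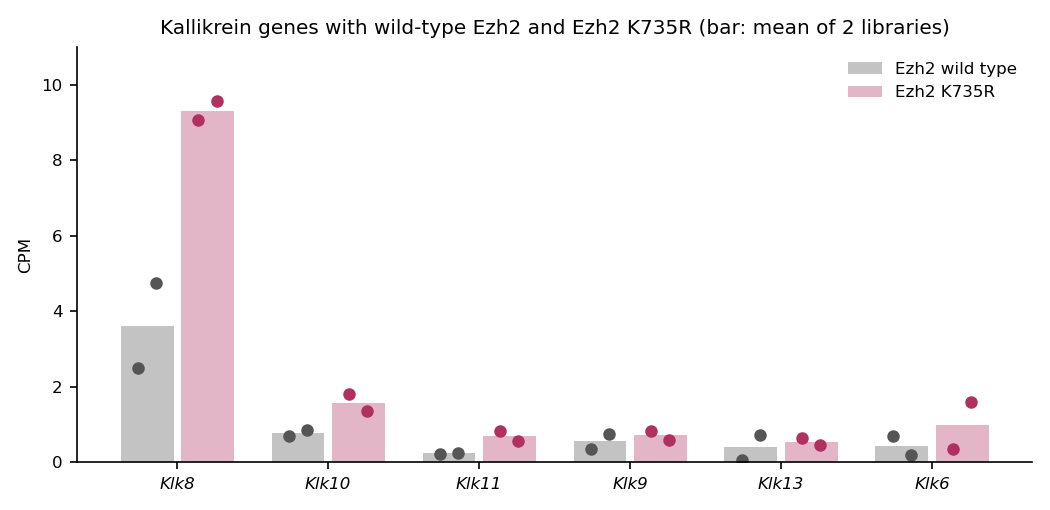
CPM (vertical axis) of 6 kallikrein genes in organoids with wild-type Ezh2 (grey) and Ezh2 K735R (red); bars are means of 2 libraries and points are the libraries. The wild-type points of Klk8 stand at 2.50 and 4.74 and its K735R points at 9.07 and 9.56; Klk9, Klk13 and Klk6 overlap between the groups.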

How the data were processed

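The authors deposited RPKM values per gene for 8 libraries, named as such per the file headers, and whole-number counts per gene for the 4 libraries with wild-type Ezh2 or Ezh2K735R. Per the submitters' processing notes, reads were placed on mm10 and Bowtie and RSEM were used; the sources used here do not give versions, strand use or filters. The ChIP-seq samples of the series were not used here. The background allele shared by the groups of each table is not reported here. RPKM values were tested with limma 3.58.1 on the log2(RPKM + 1) scale, where genes averaging under 1 RPKM were left out, all 8 libraries in 1 fit with trended and robust moderation. Reads were also recovered from the RPKM steps: 17881 of 17885 genes above 0 (99.98%) gave whole reads throughout, with a tolerance of 0.01 reads. The recovered reads, and the deposited counts, were tested with the quasi-likelihood test of edgeR 4.0.16 (TMM factors, its filter on low counts), with DESeq2 1.42.0 as an alternative for the counts. Thresholds were two-sided Benjamini-Hochberg adjusted p below 0.05 over all genes tested (R 4.3.3). The fits were tested on simulated counts in which all genes shared the same spread and no changed gene had few reads. That check does not cover the kallikreins with few reads. The 10 genes and the gene lists were chosen with earlier results of these data known. All 10 kallikreins are accounted for, and of each list up to 4 tested genes with the smallest p are named. Klk12, Klk1b22, Klk1b24, St14, Igfbp3, Krt8, Pecam1 and Upk3a fall outside that rule and were chosen after their values were seen. For the 9 genes below 1 RPKM, edgeR on recovered reads was made the reported test after seeing the data. Alternatives were quantile normalization, another pseudocount, other filters, a replicate block, fits of only the groups compared, and leaving out each library. Replicate libraries differed by more than counting noise. CPM are counts over TMM-scaled library totals. Exact 95% intervals and the floor of 3 reads cover counting error only.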

Additional observations from a re-analysis of the deposited data

Results flagged for a closer look

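The interaction of both deletions for Klk8 was 1.84 on the log2 scale in edgeR on recovered reads (SE 0.384, adjusted p 0.0474), which tests whether the Setd2 deletion changed Klk8 by the same factor with and without Ezh2. Klk8 was 1.98-fold higher in the Setd2 null than in control and 7.14-fold higher in the double null than in the Ezh2 null, in mean RPKM. In limma on log2(RPKM + 1) the same term was 0.71 with an adjusted p of 0.17, and with a pseudocount of 0.1 it was 1.64 with an adjusted p of 0.0278. The lowest level in the term, that of the Ezh2 null, rests on 29 and 35 reads. In edgeR the call was lost when any 1 library was left out, where the log2 value ran from 1.61 to 2.13.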

How the results depend on the processing

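The number of kallikreins called changed most with the test and the filter. For the Setd2 null against control it went from 1 to 0 under quantile normalization, a pseudocount of 0.1, no filter, edgeR on recovered reads and the groups compared alone, and was also 0 without any 1 library. For the Ezh2 null against control it was 3 instead of 1 both without a filter and with edgeR, Klk8, Klk9 and Klk11 each time. For the double null against the Setd2 null it was 4 without a filter (Klk6, Klk7, Klk8 and Klk9) and 2 with edgeR, and against the Ezh2 null 2 with edgeR. For the double null against control it went from 0 to 4 without a filter (Klk10, Klk6, Klk7 and Klk9). Under quantile normalization and with the groups compared alone it was 1, with Klk8 called lower. With edgeR it was also 1, but there Klk6 was called higher. The number also changed when control library 2 was left out. The interaction went from 0 to 1 with a pseudocount of 0.1 and with edgeR. For K735R the count was 0 to 1 when each library was left out. A mean of at least 5 RPKM left no kallikrein to test.

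Of 423 alternative values of 42 single-gene results, 357 kept their direction and side of the threshold, 28 lost the call, 15 gained it and 23 changed sign, none of them a called value; the cause was not tested. For Klk13 the changed values were 0.02 (limma, no filter), 0.08, 0.25, 0.00, 0.16 and 0.00 in the Ezh2 null, -0.55 and -0.15 in the double null against the Setd2 null, -0.08, -0.54, -0.25 and -0.12 for the interaction, and -0.42 (range -0.42 to 2.96 without each library) for K735R. For Klk10 in the Ezh2 null they were 0.04 and 0.10. For Klk11 they were -0.15 in the Setd2 null and 0.17 in the double null, both against control. For Klk6 they were -2.83 in the Setd2 null, -2.00 and -0.16 for the interaction and -0.25 (range -0.25 to 2.35) for K735R. For Klk9 they were -0.02 for the interaction and -0.08 (range -0.08 to 0.96) for K735R. Without TMM factors the median of all genes in the Ezh2 null against control moved from 0.075 to 0.248 on the log2 scale, and Klk8, Klk9 and Klk11 stayed called lower there.

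The groups share replicate numbers 1 and 2 in the labels, which do not say what a number marks. With the replicate number as a block, limma called 1 kallikrein in the Setd2 null, the Ezh2 null, and the double null against either single null, and 0 in the double null against control and for the interaction; edgeR with the block called 0 for K735R. On recovered reads the block brought Klk8 in the double null against control past the threshold (adjusted p 0.0472). Deviations of same-numbered libraries correlated at 0.105 to 0.358 over most pairs of groups, at 0.933 for the Ezh2 null and double null, and at 0.16 for K735R. The main fits took all libraries as unpaired, so their p-values for the double null against the Ezh2 null ignore that shared deviation. The block gave every group a common shift and does not model a deviation shared by those groups alone. Depth limits Klk1, Klk5, Klk7 and Klk14, which had 0 to 18 reads in all over 8 libraries.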
